A study of Homo sapiens with 7 samples.

Results

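The MAP kinase phosphatases and ERK feedback genes compared here are 10 transcripts that restrain MAP kinase signalling or are induced with that restraint: Dusp1, Dusp4, Dusp5, Dusp6, Dusp10, Dusp14, Spry2, Spry4, Spred1 and Ier3. They were taken by symbol from both deposited tables, which hold 21779 distinct symbols; each symbol matched 1 protein-coding row, and all 10 reached the mean of 1 FPKM (fragments per kilobase of transcript scaled to mapped fragments) required for testing. By their labels the 7 libraries come from LX2, a stellate cell line established from human liver and so 1 immortalized line: 3 libraries had PBS (con) and 4 had PTH, parathyroid hormone. No dose or exposure time is known here. All row identifiers are rat Ensembl genes although the labels name a human line, so rat symbols are used, the species of the cells was not settled, and no coordinates of the measured genes are given. No label assigns the libraries to independent cultures, and every p-value below therefore describes spread among libraries that may be technical.

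MAP kinases are switched on by dual phosphorylation and switched off when phosphatases of the DUSP family remove both phosphates. Many DUSP genes, the Sprouty genes and Ier3 are themselves induced by ERK, so their transcripts form a negative feedback loop and are commonly read as a sign of recent ERK activity. Sprouty and SPRED proteins act higher up, between growth factor receptors and RAF. The PTH receptor couples to G proteins and raises cAMP, which can restrain or promote ERK according to the cell type, and in hepatic stellate cells ERK is known for its part in proliferation and activation.

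Of the 10 genes 4 fell with PTH and none rose: Ier3, Dusp1, Spry4 and Dusp6. The mean of Ier3 was 2.19-fold lower, that of Dusp1 2.00-fold lower, that of Spry4 2.19-fold lower and that of Dusp6 1.38-fold lower. Among all 10661 tested genes 7.96% were called lower and 3.45% higher by the same rule, a limma adjusted p under 0.05 on log2(FPKM + 1). The members' median log2 fold change was -0.40, against -0.04 over all tested genes, and 9 of 10 members lay below 0, where 55.4% of tested genes did. In 5 members every PTH library lay below every PBS library, against 20.8% of tested genes, and in none above, against 12.7%. An unadjusted p under 0.05 with a lower mean was found in 5 members and in 21.7% of tested genes. The calls on Ier3 and Dusp1 were lost without PBS library 1 (adjusted p of 0.0610 for both), and that on Ier3 also without PBS library 2 (0.0519). The calls on Spry4 and Dusp6 were less stable, as set out at each gene.

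**Figure D1:**
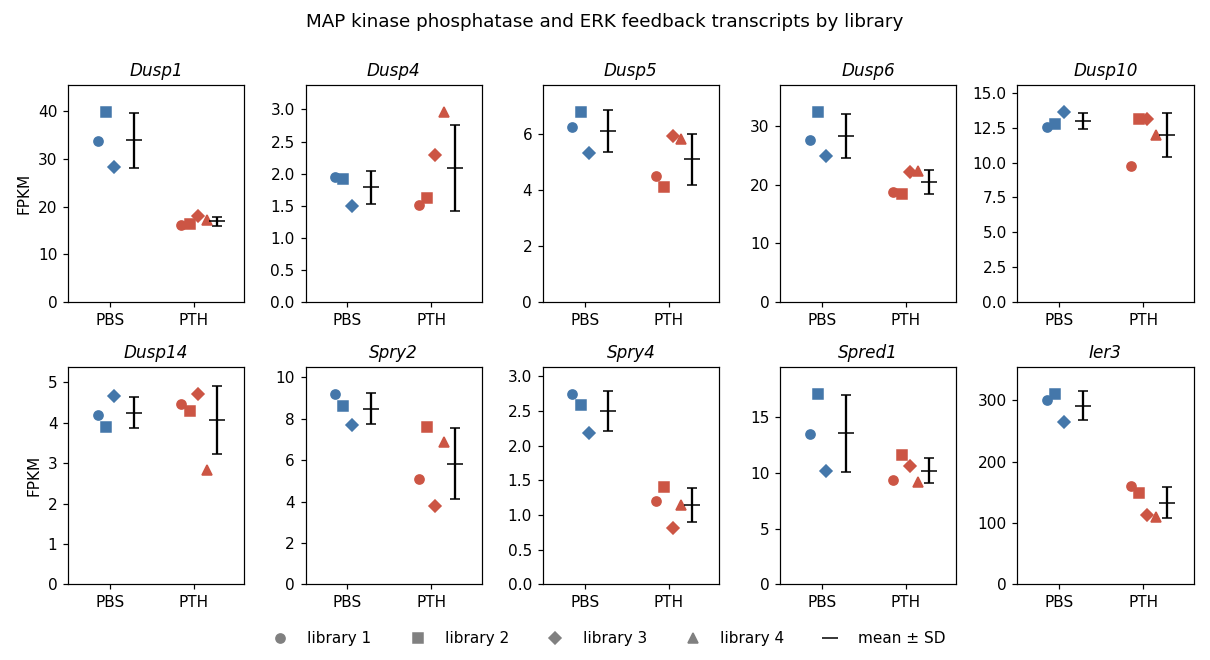
FPKM of the 10 genes in each library, on a linear axis from 0 with its own scale per gene; markers are libraries, blue for PBS and red for PTH, and the black dash and bar give the mean ± SD of 3 PBS and 4 PTH libraries. Dusp1, Dusp6, Spry2, Spry4 and Ier3 have all PTH libraries below all PBS libraries, and the groups overlap in the other 5 genes.

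Of the nuclear MAP kinase phosphatases Dusp1 fell, and Dusp5 and Dusp4 did not pass. Dusp1, also called MKP-1, removes phosphate from p38, JNK and ERK in the nucleus and is an immediate early gene. It stood at 33.7, 39.8 and 28.3 FPKM in PBS libraries 1 to 3 and at 16.2, 16.3, 18.1 and 17.2 FPKM in PTH libraries 1 to 4. The 4 PTH libraries lay close together and well below the lowest PBS library, and most of the spread was among the PBS libraries. The group means were 33.9 ± 5.73 FPKM (SD, n = 3) and 17.0 ± 0.905 FPKM (SD, n = 4). The log2 fold change was -0.95 ± 0.12 (SE), with a limma adjusted p of 0.00755. Without PBS library 2, its highest library, the log2 fold change of Dusp1 was -0.83 (adjusted p of 0.0334).

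Dusp5, a nuclear phosphatase specific for ERK, stood at 6.27, 6.79 and 5.32 FPKM with PBS and at 4.51, 4.13, 5.95 and 5.83 FPKM with PTH. The groups overlapped, since PTH libraries 3 and 4 lay above PBS library 3. Its log2 fold change of -0.23 did not pass (adjusted p of 0.318), and the 95% interval ran from -0.58 to 0.12. Dusp4, also called MKP-2, which acts on ERK and JNK in the nucleus, was the only member with a higher mean with PTH. It stood at 1.95, 1.92 and 1.49 FPKM with PBS and at 1.51, 1.62, 2.29 and 2.96 FPKM with PTH. PTH libraries 1 and 2 lay within the PBS range and libraries 3 and 4 above it. The log2 fold change of Dusp4 was 0.13, within an interval from -0.34 to 0.60 (adjusted p of 0.681).

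The PTH receptor can raise cAMP, and the series title names a CREB-like protein. The promoters of the called genes are therefore shown with the cAMP response element, TGACGTCA, and its core TGACG. Signalling through cAMP in these cells was not tested. The sequences are those of the human counterparts from RefSeq (build GRCh38.p14), because the labels name a human line; the measured identifiers are rat. An entry was found for 7 of the 10 genes, and Ier3, Dusp4 and Dusp5 are named only. Each run is the 250 bases before the transcript start, 5′ to 3′, with matches on either strand in capitals; the core lies within the full element where both match.
DUSP1, chr5:172771196-172771445, minus strand: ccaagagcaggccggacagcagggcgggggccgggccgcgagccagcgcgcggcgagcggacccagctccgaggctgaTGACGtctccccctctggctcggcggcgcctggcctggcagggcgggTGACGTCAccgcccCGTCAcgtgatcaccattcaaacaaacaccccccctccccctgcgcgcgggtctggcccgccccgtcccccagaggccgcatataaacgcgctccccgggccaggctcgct
DUSP6, chr12:89352502-89352751, minus strand: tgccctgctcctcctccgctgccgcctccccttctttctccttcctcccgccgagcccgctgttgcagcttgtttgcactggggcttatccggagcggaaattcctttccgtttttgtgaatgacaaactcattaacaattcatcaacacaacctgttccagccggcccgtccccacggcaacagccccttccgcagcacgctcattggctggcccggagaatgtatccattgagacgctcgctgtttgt
SPRY4, chr5:142324248-142324497, minus strand: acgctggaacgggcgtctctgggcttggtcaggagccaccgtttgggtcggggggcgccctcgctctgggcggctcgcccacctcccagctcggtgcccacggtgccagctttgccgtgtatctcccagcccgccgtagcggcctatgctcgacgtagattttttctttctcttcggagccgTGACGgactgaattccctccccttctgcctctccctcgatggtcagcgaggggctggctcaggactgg
The DUSP1 window held 1 full element, whose first base lies 125 bases before the start, and 4 cores, of which 2 lie inside the full element, 1 on each strand. The SPRY4 window held 1 core, 68 bases before the start, and the DUSP6 window held no match. Over 35116 promoter windows of the same length, 1.65% held TGACGTCA and 21.2% held TGACG on either strand. Of the 7 genes with an entry, DUSP1 alone held the full element, and DUSP1, SPRY4 and SPRY2 held a core, in SPRY2 in 1 of its windows. SPRY2 and DUSP10 have more than 1 window, so these counts per gene are no like measure to the shares of windows. The AP-1 element TGANTCA, found in 6.57% of all windows, was in none of the 7. These matches describe letters in a window and not binding.

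Dusp6, also called MKP-3, is the cytoplasmic phosphatase specific for ERK and a standard transcript of ERK feedback. It stood at 27.7, 32.3 and 24.9 FPKM with PBS and at 18.8, 18.5, 22.1 and 22.3 FPKM with PTH. The groups did not overlap, but the highest PTH library came close to the lowest PBS library. The means were 28.3 ± 3.76 FPKM (SD, n = 3) and 20.4 ± 2.09 FPKM (SD, n = 4), and the log2 fold change was -0.45 ± 0.11 (SE) with a limma adjusted p of 0.0447. This call was lost without any of the 3 PBS libraries (adjusted p from 0.0875 to 0.164), without PTH library 1, 3 or 4 (0.0604 to 0.103), and after median centring of the libraries (0.0753). After quantile normalization and after scaling to nuclear transcripts the adjusted p was 0.0741 and 0.0753, without a filter on low values 0.0579 and without a variance trend 0.0618. Of 20 alternatives 7 kept the call on Dusp6.

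Dusp1 and Dusp6 can also be set against each other within a library, where scaling between libraries cancels. The ratio of Dusp1 to Dusp6 was 1.22, 1.23 and 1.14 in PBS libraries 1 to 3 and 0.863, 0.882, 0.819 and 0.769 in PTH libraries 1 to 4. Thus Dusp1 was the more abundant in every PBS library and Dusp6 in every PTH library, and the group ratios did not overlap, at 1.20 ± 0.0502 (SD, n = 3) and 0.833 ± 0.0502 (SD, n = 4). The pair was chosen after the values were seen, and the ratio is given without a test.

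Neither Dusp10 nor Dusp14 was called, unlike Dusp1, which also acts on p38 and JNK. Dusp10, also called MKP-5, prefers JNK and p38 to ERK. It stood at 12.6, 12.8 and 13.6 FPKM with PBS and at 9.74, 13.1, 13.1 and 12.0 FPKM with PTH, so that only PTH libraries 1 and 4 lay below the PBS range. Its log2 fold change was -0.11, with an interval from -0.38 to 0.15 (adjusted p of 0.516), and turned to 0.00 after GC correction and to 0.04 with sample quality weights. Dusp14, a small phosphatase that lacks the kinase-docking domain, stood at 4.20, 3.91 and 4.66 FPKM with PBS and at 4.48, 4.30, 4.71 and 2.84 FPKM with PTH. PTH library 4 alone lay below the PBS range. The log2 fold change of Dusp14 was -0.06, with an interval from -0.45 to 0.32 (adjusted p of 0.817), and it was 0.01 after median centring. The ratio of Dusp1 to Dusp10 ran from 2.08 to 3.12 with PBS and from 1.25 to 1.66 with PTH, without overlap.

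**Figure D2:**
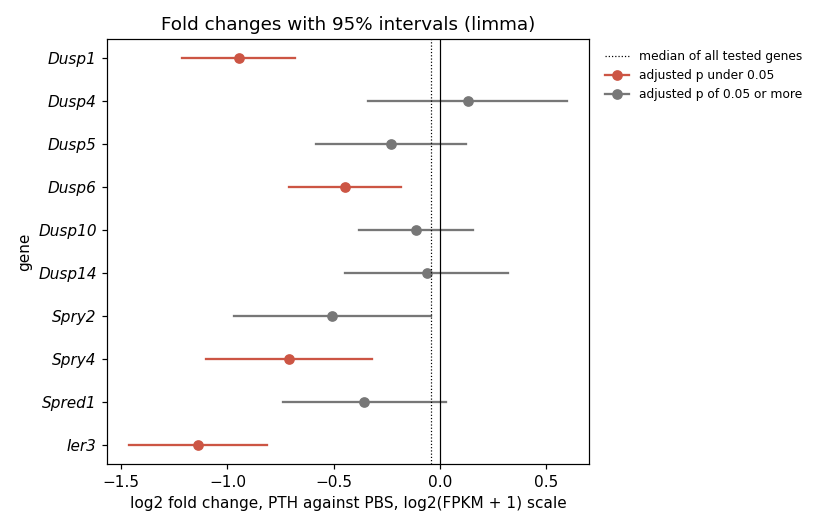
Log2 fold change of each gene, PTH against PBS, on the log2(FPKM + 1) scale; points are limma estimates over 7 libraries, lines their 95% intervals, red an adjusted p under 0.05, and the dotted line the median of all tested genes. Ier3 has the lowest estimate at -1.14, followed by Dusp1 at -0.95, while Dusp10, Dusp14 and Dusp4 lie near 0.

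Among the inhibitors that act between receptor and RAF, Spry4 fell and Spry2 and Spred1 did not pass. Spry4, a Sprouty protein that blocks RAS and RAF activation by growth factors, stood at 2.74, 2.58 and 2.18 FPKM with PBS and at 1.20, 1.40, 0.814 and 1.15 FPKM with PTH. No PTH library reached the PBS range, although both levels are low. The means were 2.50 ± 0.290 FPKM (SD, n = 3) and 1.14 ± 0.245 FPKM (SD, n = 4). The log2 fold change of Spry4 was -0.71 ± 0.17 (SE) with a limma adjusted p of 0.0397, and at so low a level the added 1 FPKM shrinks it; with 0.1 FPKM added it was -1.08 (adjusted p of 0.0476). The call was lost without any PBS library (adjusted p from 0.0916 to 0.174) and without PTH library 3 or 4 (0.109 and 0.0653).

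Spry2, the best studied Sprouty inhibitor, stood at 9.17, 8.61 and 7.68 FPKM with PBS and at 5.10, 7.58, 3.79 and 6.85 FPKM with PTH. The groups did not overlap, but PTH library 2 came within a small margin of PBS library 3, and the PTH libraries differed widely among themselves. The log2 fold change was -0.51 ± 0.20 (SE) and did not pass (limma adjusted p of 0.122), with an interval from -0.97 to -0.04. Without PTH library 2 Spry2 was called, at a log2 fold change of -0.63 (adjusted p of 0.0488). Weighting libraries by quality also called it, at -1.01 (adjusted p of 5.56e-05), but that setting called 7417 of 10661 tested genes. It gave PTH library 3, the lowest for Spry2, a weight of 12.1 and PBS library 1 a weight of 6.52. The other libraries had weights from 0.193 to 0.795, so these 2 libraries dominate that fit. Spred1, which brings neurofibromin to the membrane to switch RAS off, stood at 13.5, 17.0 and 10.1 FPKM with PBS and at 9.31, 11.6, 10.6 and 9.20 FPKM with PTH. PBS library 3 lay among the PTH libraries. Its log2 fold change of -0.36 did not pass (adjusted p of 0.171), with an interval from -0.74 to 0.03. After GC correction it was -0.10, and without PBS library 2 it was -0.19, while quality weights called Spred1 at -0.32 (adjusted p of 0.00621).

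Ier3, an early response gene and ERK substrate that affects cell survival, was by far the most abundant of the 10 per transcript length. It stood at 300.5, 309 and 264 FPKM in PBS libraries 1 to 3 and at 161, 148, 114 and 110.3 FPKM in PTH libraries 1 to 4. Every PTH library was far below the lowest PBS library, and PTH libraries 3 and 4 were lower than 1 and 2. The means were 291 ± 24.1 FPKM (SD, n = 3) and 133 ± 25.1 FPKM (SD, n = 4). The log2 fold change was -1.14 ± 0.14 (SE) with a limma adjusted p of 0.00806. The summed FPKM of the 10 genes went from 403 ± 37.3 (SD, n = 3) to 211 ± 21.0 (SD, n = 4), and without Ier3 from 112 ± 13.7 to 77.8 ± 4.83, so that Ier3 makes up most of the sum.

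In order of their PBS level the genes ran Ier3, Dusp1, Dusp6, Spred1, Dusp10, Spry2, Dusp5, Dusp14, Spry4 and Dusp4. Of neighbours in this order, Dusp1 overlapped with Dusp6 over the PBS libraries and Spred1 with Dusp10, and no other neighbours did. PBS library 3 was the lowest PBS library in 8 of them, where this held for 35.3% of tested genes, and PBS library 2 was the highest in 5, where this held for 35.4%. The PTH libraries split differently from gene to gene. Dusp1, Dusp4, Dusp5 and Dusp6 were higher in libraries 3 and 4 than in libraries 1 and 2, and Ier3 and Spry4 were lower there.

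The authors' deposited table also listed 4 of the 10 as lower at an FDR under 0.05, but not the same 4. The authors' deposited table gave an FDR of 6.51e-04 to each of Ier3, Dusp1 and Dusp6, and 0.0369 to Spry2. Over the tested genes 15.4% were lower by that rule. The authors' deposited table gave Spry4 a log2 fold change of -1.13 with an FDR of 1, a value that it also gave Dusp4.

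Other transcripts of the MAP kinase pathways were counted by list, beside 7.96% of all tested genes called lower and 3.45% called higher. Of 4 tested further MAP kinase phosphatases and 8 tested other dual-specificity phosphatases limma called 0 in either direction. The 21.7% above covers lower genes only and is no like share for counts in either direction. At an unadjusted limma p under 0.05 in either direction there were 2 genes in the first list and 1 in the second. Dusp9, an ERK phosphatase, came first among the former with 2.94 ± 0.212 FPKM in the 3 PBS libraries and 3.96 ± 0.414 FPKM (SD) in the 4 PTH libraries and a limma adjusted p of 0.123. Dusp19 came first among the latter (log2 fold change -0.36, adjusted p of 0.106). The 2 lists had median log2 fold changes of 0.10 and 0.02, and Dusp2, Dusp13, Dusp21 and Dusp26 were listed at 0 in all libraries.

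Of 13 tested further Sprouty, SPRED and receptor-level feedback genes 2 fell and none rose (median -0.20). Spred2, a paralogue of Spred1, fell from 29.2 ± 1.87 FPKM (SD, n = 3) to 21.1 ± 3.10 FPKM (SD, n = 4) with a limma adjusted p of 0.0458. Socs5, a suppressor of EGF receptor signalling, fell by 0.26 on the log2 scale (adjusted p of 0.0490). After median centring neither call held (limma adjusted p of 0.0771 for Spred2 and 0.0979 for Socs5). Both were also lost after quantile normalization and without a filter on low values. Spry1 was listed at 0 in all libraries.

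In the core of the RAS-RAF-MEK-ERK cascade 3 of 26 tested genes fell and none rose. The median was -0.06, close to the -0.04 of all tested genes. Rps6ka3, which encodes the ERK-activated kinase RSK2, fell from 24.7 ± 1.86 FPKM (SD, n = 3) to 14.4 ± 3.74 FPKM (SD, n = 4). Lamtor3, a MEK-ERK scaffold, and Rras, a RAS-related GTPase, fell by 0.55 and 0.47 on the log2 scale, with limma adjusted p of 0.0397 and 0.0459. In the JNK and p38 cascades 2 of 18 tested genes fell and 2 rose (median -0.01). Of these 18, 10 had an unadjusted limma p under 0.05 in either direction, and 9 of the 18 had a log2 fold change below 0. Map2k4, a JNK-activating kinase, and Tab2, an adaptor of the kinase TAK1, fell by 0.70 and 0.51 on the log2 scale, while Tab1, another TAK1 partner, and Rps6ka4, the kinase MSK2, had log2 fold changes of 0.71 and 0.45. Of 15 tested receptor tyrosine kinases and ligands limma called 0, with 4 at an unadjusted p under 0.05 in either direction (median 0.12). Pdgfc came first, with a limma adjusted p of 0.0553.

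Among 20 tested further genes that ERK is known to induce, 6 fell and none rose (median -0.21). Egr1, a zinc finger transcription factor, stood at 88.7, 96.7 and 77.1 FPKM with PBS and at 37.8, 46.3, 41.8 and 39.6 FPKM with PTH, again with PBS library 2 highest and PBS library 3 lowest. Its log2 fold change was -1.06, with a limma adjusted p of 0.00208. Zfp36, whose protein tristetraprolin speeds mRNA decay, fell by 0.66 on the log2 scale, Cyr61, a matricellular protein gene, by 0.82 and Lif, a cytokine of the IL-6 family, by 0.61. Fos and Ereg, named after their values were seen, completed the 6. Others of the list did not pass, among them the ERK-induced transcription factors Etv4 and Etv5, also named after their values were seen, with log2 fold changes of 0.07 and -0.42. Of the 15 calls named by rule from the pathway and marker lists, limma kept 1 when PBS library 1 or 2 was left out and 5 when PBS library 3 was. Leaving out PTH library 3 kept 3 of them, PTH library 4 kept 5, PTH library 1 kept 12 and PTH library 2 kept all 15, and 10 held after median centring. Without a filter on low values 7 held, without a variance trend 7 and after GC correction 11.

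**Figure D3:**
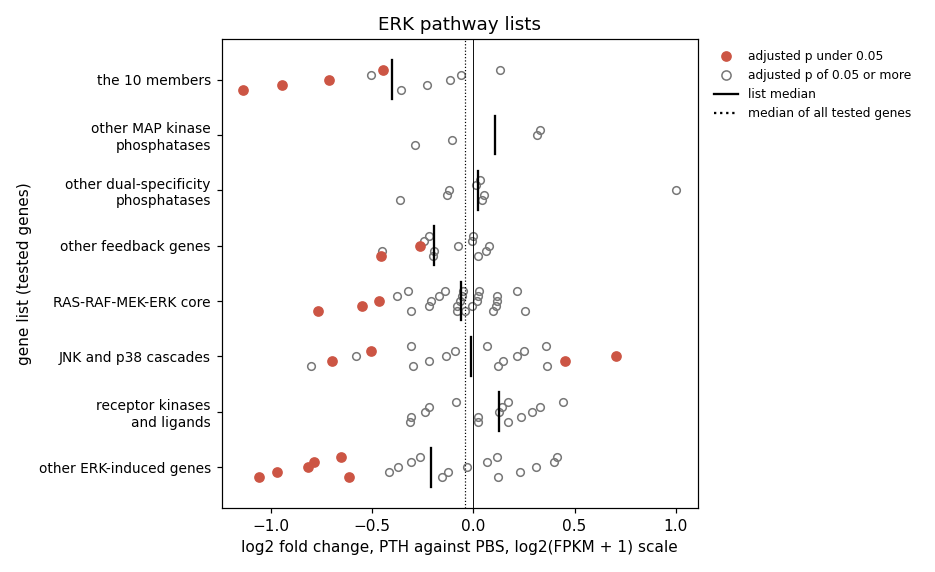
Log2 fold changes of all tested genes of the 10 members and of 7 pathway lists, PTH against PBS on the log2(FPKM + 1) scale; each circle is a gene, filled red at an adjusted p under 0.05, with the list median as a black bar and the median of all tested genes as a dotted line. The list medians run from -0.40 for the members to 0.12 for the receptor kinases and ligands.

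The summed FPKM of a PBS library was 519845 to 532909 and that of a PTH library 472621 to 509859, and mitochondrial mRNAs took 5.81 to 5.93% of it with PBS and 0.872 to 3.63% with PTH; their part in the results was not tested. Log2 fold changes also moved with GC content, taken from human counterpart transcripts: over 5 equal bins their median went from -0.26 at the lowest GC to 0.14 at the highest. Ier3, Dusp1 and Spry4 belong to bin 4, whose median was 0.06, and after GC correction their log2 fold changes were -1.22, -0.997 and -0.76 with calls kept. Dusp6 lies in bin 3, with a median of -0.03, and after GC correction had -0.38 and an adjusted p of 0.0745. In bin 1, the lowest, 301 genes were called lower and 12 higher, and in bin 5 26 lower and 141 higher. Of the named pathway genes that fell, Socs5, Rps6ka3, Lamtor3 and Tab2 lie in bin 1 and Map2k4 in bin 2. Spred2 and Cyr61 lie in bin 3, Egr1, Zfp36 and Lif in bin 4 and Rras in bin 5. Tab1 and Rps6ka4, which rose, lie in bin 5. The part of GC content in these calls was not tested. Of 17 stellate markers Lrat and Reln were listed at 0 throughout, and Timp1 and Vim led the list, at 1792 ± 30.5 and 702 ± 30.5 FPKM with PBS (SD, n = 3). Col1a1, Col3a1 and Lox followed at 291, 109 and 91.4 FPKM with PBS. The other stellate markers had PBS means of 11.7 FPKM (Tagln) or lower, Acta2 and Gfap under 1 FPKM. The summed stellate markers ran from 3004 to 3038 FPKM with PBS and from 3167 to 3664 FPKM with PTH. Of 14 tested 1 rose, Vim, and 1 fell, Dcn, from a mean of 3.14 to 1.27 FPKM. Of 12 hepatocyte markers 8, including Alb, were at 0 throughout (summed 9.22 to 11.4 FPKM with PBS and 9.35 to 12.4 FPKM with PTH, led by Tf at 7.57 and 8.95 and Hp at 1.95 and 0.529 FPKM, which fell), and of 10 matched leukocyte markers 7, including Ptprc, were at 0 (14.7 to 20.9 and 13.1 to 18.7 FPKM, nearly all Cd14, with Cd68 next). Of 7 matched endothelial markers Kdr and Stab2 were at 0 (3.27 to 5.05 and 2.05 to 6.07 FPKM, mostly Egfl7, with Vwf next at 0.336 and 0.246 FPKM). Of 6 cholangiocyte markers Sox9 was at 0, and their sum, 344 to 354 FPKM with PBS and 284 to 323 FPKM with PTH, was nearly all Spp1, with Krt19 next at 7.17 and 5.18 FPKM. The call on Hp (limma adjusted p of 0.0469) rests on values near the floor, with PTH library 4 at 0 FPKM. With 0.1 FPKM added its limma adjusted p was 0.113, and after median centring 0.0527. The part of these markers in the results was not tested.

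**Figure D4:**
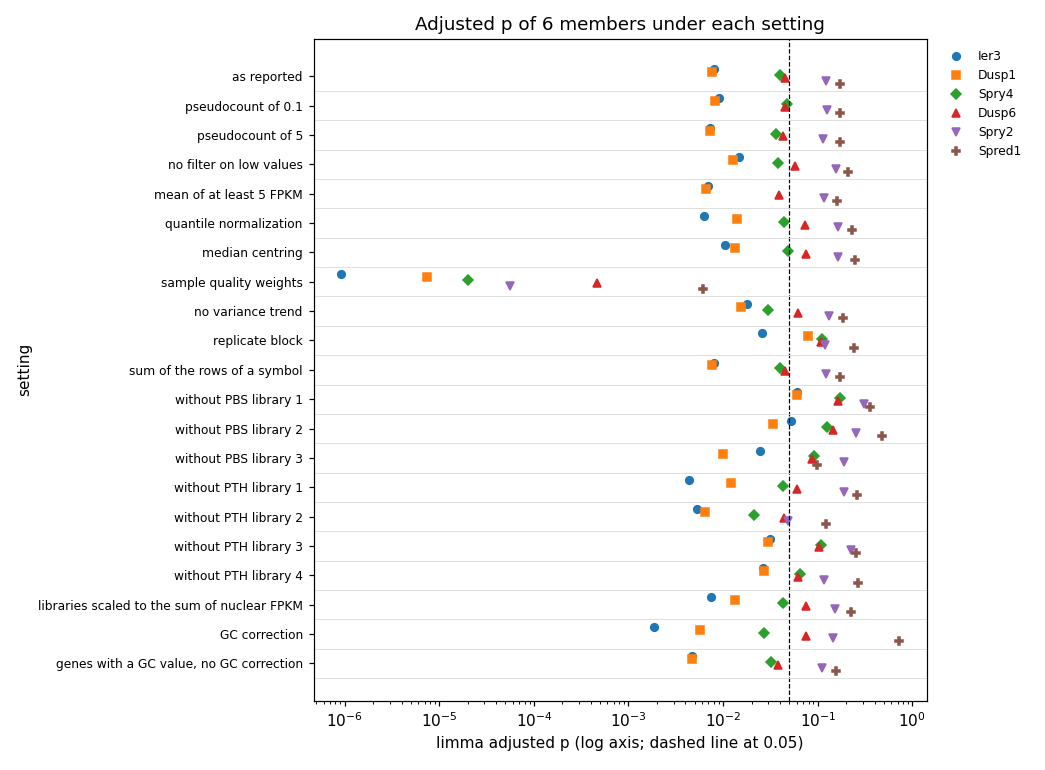
Limma adjusted p of 6 members (log axis, dashed line at 0.05) in the fit as reported and under each other setting, listed on the vertical axis. Ier3 and Dusp1 lie left of the line except without PBS library 1, Ier3 also without PBS library 2 and Dusp1 under the replicate block, whereas Spry4 and Dusp6 lie right of it under the block and when most libraries are left out, and Dusp6 also under other scalings, with no filter, with no variance trend and after GC correction.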

How the data were processed

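RNA-seq values of 3 PBS and 4 PTH libraries were used. Per the file headers, the authors deposited FPKM per gene for each library, in 2 tables (14913 and 7149 rows). They also deposited a log2 fold change and an FDR, an adjusted p-value, per gene; the authors' log2 column is infinite where a group is at 0 and was handled as a score in the first table. The submitters' processing notes name Bowtie 0.12.2 and mm8, without roles; the FPKM program is not given in the sources used here. Total fragments are not given. Ratios to PBS library 1 were taken in rows with a mean under 0.1 FPKM and both libraries above 0. Ratios far from 1 were dropped first, which left 35 to 145 rows per library and in part sets their closeness. Of those left, 74.3 to 96.2% lay within 0.02 (log2) of their median. By these medians depth, or scaling, was 0.763 to 1.29 times that of PBS library 1.

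Of rows with 1 symbol the most abundant stood for it. The 10661 genes whose mean reached 1 FPKM were tested on log2(FPKM + 1) with limma 3.58.1 (R 4.3.3), two-sided, with a variance trend and without covariates; calls are Benjamini-Hochberg adjusted p under 0.05 over all of them. Such log2 fold changes understate those of low genes. Folds are ratios of mean FPKM. The fit was tested on simulated data.

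The members, the 7 pathway lists (133 genes, 130 matched) and 5 marker lists were chosen with earlier results of these data known, so their counts are descriptions. From each pathway list up to 4 called genes with the smallest p were named, or the gene with the smallest p; from each marker list the 2 most abundant. Etv4, Etv5, Fos, Ereg, Dcn, Col1a1, Col3a1, Lox, Tagln, Acta2, Gfap and genes listed at 0 were named after their values were seen. Alternatives covered pseudocount, filter, scaling, weights, variance trend, replicate block, row choice and each library left out. Scaling to nuclear FPKM and GC correction over 20 bins were added after seeing the data.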

Additional observations from a re-analysis of the deposited data

Results flagged for a closer look

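Among the 36 genes that the naming rule gave and that varied with PTH, 1 had a PTH library apart from the other 3, far from its nearest neighbour for the range they cover. Cd68, a macrophage marker, stood at 2.39 FPKM in PTH library 2 against 0.349 to 0.581 FPKM in the others (gap over range 0.887). Chance flags about 1 in 20 such groups, and none of the 10 phosphatase and feedback genes had such a library; Dusp14 came closest, with PTH library 4 lowest (0.783). No explanation was tested.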

How the results depend on the processing

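Against 1217 calls over all genes, limma gave 765 without a filter on low values, 625 without a variance trend and 7417 with sample quality weights, which ran from 0.193 to 12.1. The share of higher calls, 30.2%, was 53.7% after quantile normalization, 51.6% after median centring, 51.0% after scaling to nuclear FPKM, 47.6% after GC correction and 41.9% with quality weights. Leaving out 1 library gave 28 to 2750 calls. Against 4 members called lower, 6 were called with quality weights, Spry2 and Spred1 being added, and 3 without a filter, without a variance trend, at a minimum mean of 5 FPKM, after GC correction and under each of the 3 other scalings. From 0 to 5 were called with 1 library left out. Leaving out PBS library 1 gave 0, PBS library 2 gave 1, PBS library 3 gave 2, PTH library 3 or 4 gave 2, PTH library 1 gave 3 and PTH library 2 gave 5, Spry2 being added. The replicate block left 20 calls, 1 of the 15 named list calls and 1 member, Ier3 (adjusted p of 0.0258); Dusp1 had 0.0781, Dusp6 0.109 and Spry4 0.112. The numbers did not pair the libraries, with correlations of deviations of -0.0072, 0.0011 and -0.037 for numbers 1 to 3, and PTH library 4 then has no partner. The difference in the members' summed FPKM, -192, was -34.1 without Ier3 and -212.6 to -176 with 1 library left out. Dusp14 had a log2 fold change of 0.0078 after median centring, 0.108 with quality weights, 0.0658 under the replicate block, and -0.125 to 0.0658 with 1 library left out, the latter without PTH library 4. Dusp10 had 0.0356 with quality weights and 0.000373 after GC correction. Dusp1, Dusp6, Spry4 and Ier3 kept their direction in all alternatives run; at a minimum mean of 5 FPKM, Spry4, Dusp4 and Dusp14 were not tested. The causes of these changes were not tested.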
